A study of Mus musculus with 2 samples.

Results

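Cells carrying transcripts of the interferon-induced chemokines Cxcl9 or Cxcl10 made up 250 of the 3065 cells kept in the LSM library of mouse liver leukocytes, or 8.16% (exact 95% binomial interval 7.21 to 9.18%), among 4313 cells kept in the whole series. A cell was taken when it had at least 2 unique molecular identifiers (UMIs, each standing for 1 captured RNA molecule) of Cxcl9 and Cxcl10 together, at least 3 UMIs of the MHC class II gene H2-Ab1, and no UMI of Ccr7, Fscn1, Siglech, Cd3d or Cd3g. These cells are called members below. They were set against 1282 LSM cells with at least 3 H2-Ab1 UMIs and neither chemokine, called comparators. A narrower set of 1063 comparators, called matched, also lacked the 5 excluded transcripts, as the members do.

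The cells came from the liver of C57BL/6 mice, 7 to 10 weeks old, and were CD45+. They passed 1 of 2 sorting gates, and the labels name no treatment or genetic change. The LSM gate took lineage-negative cells with surface Sca-1 (the product of Ly6a) and Mac-1 (whose alpha chain is the product of Itgam). The other gate took lineage-negative cells with surface CD122 and CD49a. There was 1 library per gate, and the labels do not say how many mice each library holds, so no difference below has a replicate check and no test was run.

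CXCL9 and CXCL10 are secreted chemokines that attract activated T cells and natural killer cells through the receptor CXCR3. Interferon gamma acts through a receptor pair and the kinases JAK1 and JAK2 to switch on IRF1, the guanylate-binding proteins (GBPs), the immunity-related GTPases and the machinery of antigen presentation. Type I interferons act through a receptor of their own on an overlapping set that includes Isg15 and the Ifit genes. Dendritic cells take up antigen and present it to T cells, and in the liver they lie among other phagocytes along the sinusoids and portal tracts.

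Both chemokine genes lie side by side on the minus strand of chromosome 5 in GRCm38, Cxcl9 at bases 92321347 to 92328079 and Cxcl10 at 92346638 to 92348889. Promoter sequences from RefSeq (GRCm38.p6) were searched, from 250 bases before to 50 bases after the start, because the genes with the largest ratios in members belong to families known as interferon targets. The motifs were GAAANN followed by GAAA, the core of the interferon-stimulated response element, TTCNNNGAA, the form of the gamma-activated site, and GGGA followed by NNTNCC, a form bound by NF-kappaB, each on both strands. Where 2 motifs overlap, both were counted. The first stood in the promoters of 3.99% of the 27025 genes in the table, the second in 9.55% and the third in 4.56%. The 250 bases before the Cxcl10 start (chr5:92348890-92349139, minus strand) and before the Gbp5 start (chr3:142496684-142496933, plus strand) are shown because each holds the first motif together with the third, in capitals, and Gbp5 also holds 2 copies of the second.
Cxcl10: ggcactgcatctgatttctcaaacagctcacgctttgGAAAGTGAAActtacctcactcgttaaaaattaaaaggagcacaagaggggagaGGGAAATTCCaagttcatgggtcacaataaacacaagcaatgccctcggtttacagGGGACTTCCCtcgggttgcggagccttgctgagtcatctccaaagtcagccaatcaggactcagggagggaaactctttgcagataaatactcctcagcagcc
Gbp5: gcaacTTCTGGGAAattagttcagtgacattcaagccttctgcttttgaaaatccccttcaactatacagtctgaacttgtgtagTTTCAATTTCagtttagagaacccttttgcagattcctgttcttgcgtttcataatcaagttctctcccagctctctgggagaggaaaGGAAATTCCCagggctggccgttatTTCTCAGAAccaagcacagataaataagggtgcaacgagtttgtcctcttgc

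Of the 15 genes with the largest ratio in members, listed further on, 11 had a promoter in the table. The first motif stood in 6 of them (Tgtp1, Gbp2, Gbp5, Socs1, Igtp, Isg15), the second in 5 (Serpina3g, Ccl17, Tgtp1, Gbp5, Igtp), and either in 8. Of the 15 genes with the largest ratio in the other direction, 9 were in the table, and either motif stood in 2, Txndc5 and Pdcd4, against 12.9% of all genes in the table. No Cxcl9 match of any of the 3 motifs was found in this window. The stretches around the matches are shown for 4 genes: Tgtp1 (chr11:48992284-48992364, minus strand) and Igtp (chr11:58199481-58199555, plus strand), in which the second and first motifs stand close together, Socs1 (chr16:10785574-10785649, minus strand), in which 2 overlapping copies of the first form 1 run, and Serpina3g (chr12:104236084-104236146, plus strand), which has the second alone. A match describes these letters and is not a measured binding site.
Tgtp1: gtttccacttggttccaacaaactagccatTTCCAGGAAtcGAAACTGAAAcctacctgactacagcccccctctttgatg
Igtp: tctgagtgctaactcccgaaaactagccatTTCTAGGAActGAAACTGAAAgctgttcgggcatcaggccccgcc
Socs1: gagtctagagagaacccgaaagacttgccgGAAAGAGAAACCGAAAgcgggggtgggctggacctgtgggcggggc
Serpina3g: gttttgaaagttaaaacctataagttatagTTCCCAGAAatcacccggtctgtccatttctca

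Cxcl9 was the commoner chemokine. It was found in 224 members (89.6%) and Cxcl10 in 91 (36.4%), with 159 members holding Cxcl9 only, 26 Cxcl10 only and 65 both. The summed count per member ran from 2 to 152 UMIs with a median of 11, Cxcl9 from 0 to 146 with a median of 8, and Cxcl10 from 0 to 64 with a median of 0. The chemokine RNA was therefore spread unevenly, and the 25 highest members held 39.4% of the members' chemokine UMIs. Members held 88.9% of all Cxcl9 UMIs of the kept LSM cells and 64.8% of the Cxcl10 UMIs. The rest of the Cxcl10 RNA lay in cells outside the rule. Across 243 members thinned to 3000 UMIs each, the counts of the 2 genes had a Spearman correlation of -0.07, as a description of cells from 1 library.

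**Figure D1:**
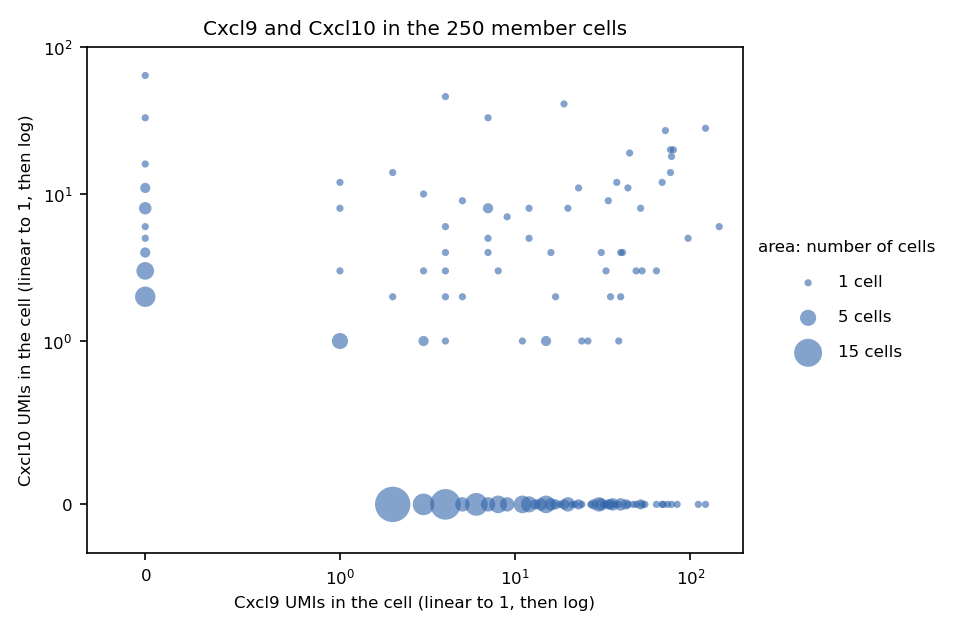
Cxcl9 UMIs (x axis) against Cxcl10 UMIs (y axis) in each of the 250 members, both axes linear up to 1 and logarithmic above, with the area of a point standing for the number of cells. The largest points lie along the lower edge, where 159 cells had Cxcl9 and no Cxcl10, and 26 cells lie along the left edge with Cxcl10 only.

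These values chose the cells and are not a finding. Just outside the chemokine limit were 65 cells with 1 UMI, which held Serpina3g at 61.2 CPM (counts per 1e6 UMIs of the group) and Ly6a at 113 CPM. Just inside were 37 cells with 2 UMIs, which held 133 and 310 CPM. Cells with no chemokine held 11.6 and 76.2 CPM. At the H2-Ab1 limit, 4 chemokine cells had 2 UMIs and 2 had 3. Another 28 chemokine cells without excluded transcripts had 0 H2-Ab1 UMIs. They held Serpina3g at 306 CPM and Isg15 at 605 CPM, against 364 and 634 CPM in members, and Ly6a at 328 CPM. Their Ccl17 and Gbp2 stood at 7.29 and 36.4 CPM, against 786 and 247 CPM in members. Part of the pattern was thus also found in chemokine cells without H2-Ab1. Of 330 kept LSM cells with at least 2 chemokine UMIs, 46 were under the H2-Ab1 limit, and 34 of the other 284 had an excluded transcript, most often Ccr7 (24 cells) or Fscn1 (15 cells).

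Free RNA in droplets can give UMIs to cells that do not express a gene. Among 94 cells with basophil or mast cell transcripts (median 2055 UMIs) none had Cxcl9, which allows a share of up to 3.19%, and 3 (3.19%) had Cxcl10. Among 283 cells with Cd34 and no H2-Ab1 (median 5030 UMIs), 2 (0.707%) had Cxcl9 and 33 (11.7%) had Cxcl10, with up to 12 UMIs in a cell. In H2-Ab1 cells without the excluded transcripts (median 6293 UMIs) the shares were 19.0% for Cxcl9 and 8.56% for Cxcl10. Among 111 cells with Siglech and under 3 H2-Ab1 UMIs (median 4178 UMIs), none had Cxcl9, which allows up to 2.70%, and 1 had Cxcl10. The Cxcl9 share of H2-Ab1 cells was above that of these 3 populations. Their Cxcl10 share was below that of Cd34 cells, so the 26 members taken on Cxcl10 alone are the least set apart from other cells.

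The kept LSM cells had a median of 5109 UMIs and those of the other library 1464. Members had 1664 to 15388 UMIs (median 6645.5), comparators a median of 5925.5 and matched comparators 6154. The libraries shared 3 barcodes, of which 0 were members. A doublet caller marked 2.80% of members and 3.90% of comparators. Ratios below are of summed UMIs scaled to the sum over the group, and their intervals, like all others here, cover counting error only.

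The dendritic-cell part of the label was checked against markers. H2-Ab1 ran from 3 to 124 UMIs per member with a median of 51.5, against 39 in comparators and 45 in matched comparators. The dendritic-cell genes Flt3, Zbtb46 and Itgax stood at 63.4, 28.2 and 67.4 CPM in members and at 68.5, 21.5 and 57.5 CPM in comparators. Of the 6 genes on the list shared by conventional dendritic cells 0 were past 2-fold against comparators and 1 against matched comparators, Traf1, a signalling adaptor, at 3.01-fold. Mature dendritic-cell markers other than Ccr7 and Fscn1 summed to 351 CPM in members, 209 CPM in comparators and 31.5 CPM in matched comparators. Of the 7 tested genes 2 were at least 2-fold higher and 5 lower against comparators, and 4 higher and 0 lower against matched comparators. Over all genes the shares were 2.54% and 8.89% (3.09% and 6.89% against matched comparators). Among the higher genes was Il4i1, an amino acid oxidase, at 172, 54.4 and 18.7 CPM in the 3 groups. Of the 351 CPM in members, Ccl22 gave 157 CPM and Il4i1 the 172 CPM, so the sum mostly describes these genes. Batf3, a factor of the type 1 lineage, stood at 394 CPM against 281 CPM. Kupffer cell and macrophage markers summed to 210 CPM in members and 239 CPM in comparators, with 0 of 6 tested genes higher and 2 lower. C1qa, C1qb and C1qc were at 0.97, 1.06 and 0.86 of the comparators' level. Few members carried C1qa: 1.89% of those with Cxcl9 only, 7.69% with Cxcl10 only and 3.08% with both. Its level is therefore not that of a usual member. Timd4, Cd5l and Marco were at 0 in members, and Timd4 and Marco had too few UMIs in comparators for a bound. Monocyte markers summed to 2738 and 3133 CPM, with Cd300e at 0 in members. Of the 10 monocyte genes tested 1 was at least 2-fold higher against comparators, Fcgr1 at 3.04-fold, and 4 were lower. Over all genes tested these shares were 2.54% and 8.89%. Ccr2, a monocyte marker also found on type 2 dendritic cells, was in 71.2% of members and 71.2% of matched comparators. Neutrophil markers summed to 1.15 CPM, with 6 of 7 at 0 in members. T cell markers outside the rule summed to 6.91 CPM in members, with Cd3e, Cd4, Cd8b1 and Bcl11b at 0.

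The members were not of a single dendritic-cell class. By transcripts, 16 members (6.4%) had at least 2 UMIs of the type 1 genes Xcr1 and Clec9a without Cd209a, 72 (28.8%) had Cd209a, a lectin of type 2 and monocyte-derived dendritic cells, without the type 1 genes, 13 had both and 149 (59.6%) fell in neither class. Among matched comparators the shares were 5.17% for the type 1 class and 46.6% for the Cd209a class. Read the other way, the members were 21.1% of type 1 cells (12.5 to 31.9%), 12.3% of Cd209a cells (9.76 to 15.2%) and 23.7% of cells in neither class (20.4 to 27.2%). Of the type 2 list, Cd209a stood at 279 CPM in members against 505 CPM and Clec4a2, an inhibitory lectin receptor, at 16.7 against 49.1 CPM, while Mgl2, a further lectin, was higher at 160 against 56.5 CPM and Tnip3, an inhibitor of NF-kappaB, at 142 against 42.9 CPM. The type 1 genes Xcr1 and Clec9a stood at 16.7 and 38.6 CPM against 14.3 and 35.5 CPM. Their whole list summed to 1039 against 639 CPM, with 1 of 8 tested genes at least 2-fold higher, Naaa, and 1 lower, Cadm1. The type 2 list summed to 985 against 1184 CPM, with 2 of 10 higher and 2 lower, Clec4a2 and Ltb. Over all genes the shares were 2.54% and 8.89%. Against matched comparators the type 1 counts were 1 and 1 and the type 2 counts 2 and 3. The shares over all genes were then 3.09% and 6.89%.

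The genes of the gate gave unlike values. Ly6a was found in 61.6% of members and 22.2% of comparators, and its level was 4.98-fold higher (4.55 to 5.45), at 581 against 117 CPM, and 7.63-fold higher than in matched comparators. After thinning to 3000 UMIs the shares were 49.4% and 16%. Itgam was in 10.0% of members and 16.5% of comparators and stood at 16.1 against 36.7 CPM, 0.44 of the comparators' level (0.29 to 0.65). Ly6a is itself known as an interferon-induced gene.

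Over all genes, 7806 had at least 50 UMIs in members and comparators together. Of these, 198 (2.54%) were at least 2-fold higher in members and 694 (8.89%) at least 2-fold lower. The median log2 ratio of all of them was -0.14, so the scale itself leans toward lower values. With median-of-ratios scaling in place of CPM, which moves it by 0.14, the split was 265 higher and 540 lower. Against the matched comparators 228 of 7374 genes (3.09%) were higher and 508 (6.89%) lower. The members were chosen by 2 of the genes, so these ratios describe the cells.

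Protein-coding genes at 50 CPM or more and in at least 10% of members were ranked by ratio if they also passed 2-fold against matched comparators. The first 15 were, in order, Iigp1, Serpina3g, Ccl17, Tgtp1, Gbp2, Gbp5, Ly6i, Fam26f, AA467197, Socs1, Cd40, Igtp, Ifi47, Isg15 and Ccl22. Of them 3 (Serpina3g, Ccl17, Gbp2) were marker genes given for these cells. The markers were given with earlier results of these data known, so their rank is not independent support. Iigp1, a GTPase that acts against intracellular parasites, was 48.6-fold higher (26.9 to 96.6), at 73.8 against 1.52 CPM, and was found in 18.0% of members. Serpina3g, an inhibitor of cathepsin proteases, was 27.9-fold higher (22.6 to 34.7), at 364 against 13 CPM, and was in 64.0% of members against 5.38% of comparators. After thinning, those shares were 47.3% and 2.91%. Serpina3g was thus the widest spread of the 3 marker genes outside the rule, ahead of Gbp2 in 49.6% of members and Ccl17 in 30.4%. At least 1 of these 3 genes was found in all but 56 members (22.4%), and none of them in 87.1% of comparators.

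**Figure D2:**
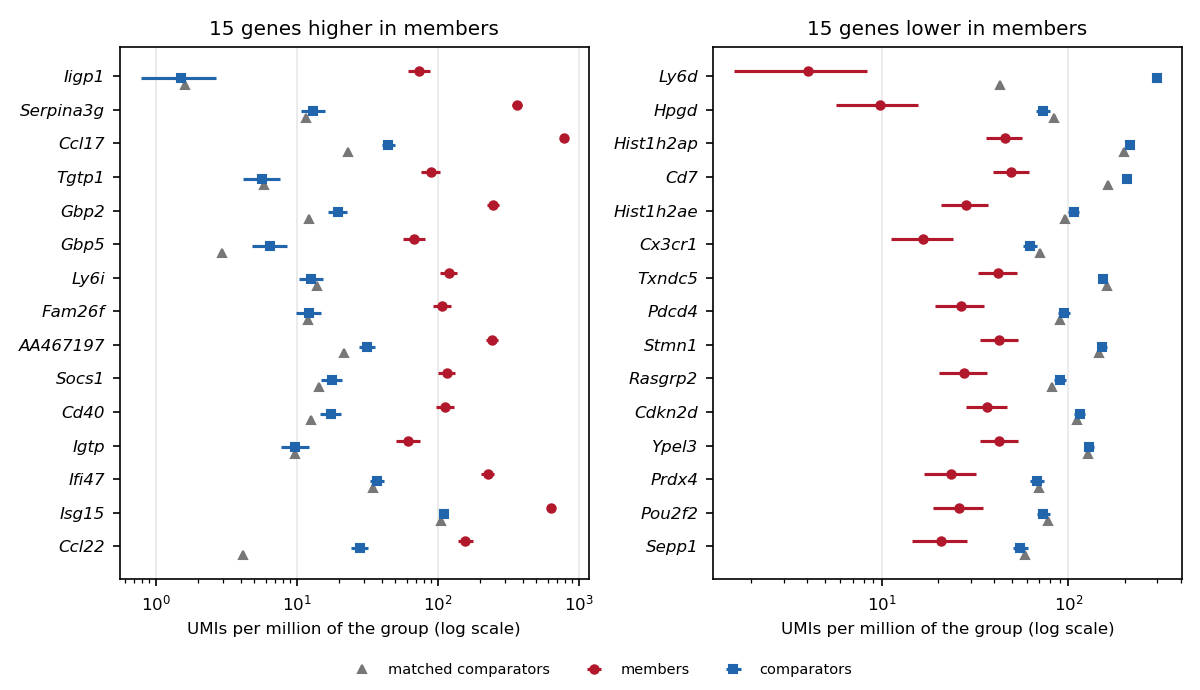
Summed CPM (log axis) for the 15 higher and 15 lower ranked genes, in members (circles), comparators (squares) and matched comparators (triangles), with exact Poisson 95% intervals on the first 2 groups. Each member value on the left lies to the right of both comparator values, and each on the right panel lies to the left of both.

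Among the chemokine ligands, Ccl17 and Ccl22, both ligands of the receptor CCR4, were higher. Ccl17 stood at 786 CPM in members, 44.4 CPM in comparators and 23 CPM in matched comparators, a 17.7-fold ratio (15.74 to 19.97) to the comparators and 34.2-fold to the matched. Ccl22 stood at 157, 27.8 and 4.12 CPM, a 5.64-fold ratio that became 38.0-fold against the matched comparators, which lack Ccr7 and Fscn1 cells. Of the 12 ligands tested, 5 were at least 2-fold higher (also Ccl24, Cxcl16 and Cxcl2) and 4 at least 2-fold lower (Ccl5, Ccl6, Ccl9, Xcl1). Over all genes the shares were 2.54% and 8.89%. The median log2 ratio of the 12 ligands was 0.01. Few cells carried some of these: 88.7% of the Ccl24 UMIs came from 5 members, and Ccl24, an eosinophil attractant, was in 6.80% of members. Cxcl16, the ligand of CXCR6, was in 34.4% of members against 15.8% of comparators. Ccl5 was 0.33 of the comparators' level and 2.74-fold higher than in matched comparators, so its direction depends on the cells set beside the members.

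Of 9 chemokine receptors tested, 0 were at least 2-fold higher and 3 were at least 2-fold lower (0 and 1 against matched comparators). Over all genes the shares were 2.54% and 8.89% (3.09% and 6.89% against matched comparators). Cx3cr1, the fractalkine receptor, stood at 16.7 CPM in members against 62.5 CPM and was in 7.60% of members against 23.2% of comparators. Ccr9 stood at 5.19 against 43.5 CPM but was at 8.40 CPM in matched comparators, and Cxcr4 at 9.80 against 20.5 CPM. Cxcr3, the receptor of CXCL9 and CXCL10, was in 5.20% of members and 8.03% of comparators.

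Of the interferon signalling genes, 5 of 17 were at least 2-fold higher, against 2.54% of all genes, and 1 lower, near the 8.89%. Among the higher genes, Socs1, which inhibits the JAK kinases, was 6.51-fold higher (5.22 to 8.14), Stat2 2.95-fold, Irf1 2.80-fold and Jak2 2.01-fold. Irf1, a transcription factor, was in 65.2% of members and 36.2% of comparators, or 47.7% and 23.6% after thinning. The receptor genes went otherwise: Ifngr1, which encodes the ligand-binding chain for interferon gamma, stood at 82.4 CPM against 168 CPM, 0.49 of the comparators' level (0.41 to 0.58), while Ifngr2, Ifnar1 and Ifnar2 were at 1.14, 0.96 and 0.65 of it. Irf9 was at 1.09 and Jak1 at 1.02.

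All 12 GBP and immunity-related GTPase genes that could be tested were at least 2-fold higher, against the 2.54% of all genes. Their summed level was 1039 CPM in members (992 to 1089), 154 CPM in comparators and 134 CPM in matched comparators. Their median log2 ratio was 2.67. Gbp2 was 12.7-fold higher and Gbp5 10.5-fold, or 20.2-fold and 23.1-fold against matched comparators. Tgtp1 was 15.6-fold higher, Igtp 6.33-fold, Ifi47 6.04-fold and Irgm1 2.97-fold. Gbp4, Gbp8 and Gbp9 overlap on chromosome 5, as Igtp and Irgm2 do on chromosome 11, so reads of such neighbours, and of the near-identical Tgtp1 and Tgtp2, cannot be fully told apart.

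Of the type I interferon-stimulated genes, 18 of 28 tested were at least 2-fold higher and 0 lower, against 2.54% and 8.89% of all genes. Their median log2 ratio was 1.40. Isg15, a ubiquitin-like modifier, stood at 634 against 110 CPM and was in 65.2% of members. Zbp1, a sensor of Z-form nucleic acid, was 5.20-fold higher, Irf7 3.95-fold, Ifit1 7.92-fold and Rsad2 6.44-fold. The Ifit genes were restricted in spread, with Ifit3 in 10.0% of members and 62.4% of its UMIs in 5 cells. Ifi27l2a, at 998 CPM in both groups, and Bst2, at 738 CPM in members, 816 CPM in comparators and 532 CPM in matched comparators, were among those within 2-fold, and the direction of Bst2 depends on the comparators. The list's summed level was 1.65-fold that of comparators, below its median ratio.

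Antigen presentation differed less. In the MHC class I and immunoproteasome list 3 of 22 genes were at least 2-fold higher and 0 lower (8 and 0 against matched comparators). Over all genes the shares were 2.54% and 8.89% (3.09% and 6.89% against matched comparators). The 3 were Tapbpl, a peptide editor, at 3.02-fold, Tap1, a peptide transporter chain, at 2.25-fold and Psme2, a proteasome activator chain, at 2.15-fold. The summed level was 1.45-fold higher. B2m and H2-K1 were at 1.36 and 1.12 of the comparators' level. In the MHC class II list, which leaves out H2-Ab1, 0 of 13 genes passed 2-fold against comparators. Against matched comparators 2 were at least 2-fold higher and 0 lower. The summed level was 1.17-fold that of comparators and 1.13-fold that of matched comparators.

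Costimulatory and checkpoint genes were at least 2-fold higher in 6 of 11 cases, against 2.54% of all genes, and lower in 1, near the 8.89%. Cd40, the receptor for help from T cells, was 6.44-fold higher (5.15 to 8.07) and was in 41.6% of members against 8.11% of comparators. Cd274 (PD-L1) was 3.71-fold higher, Pdcd1lg2 (PD-L2) 3.27-fold, Cd86 2.76-fold, Icam1 2.63-fold and Cd83 2.13-fold. Against matched comparators Cd274 and Pdcd1lg2 were 7.02-fold and 7.31-fold higher. Cd200 was at 0.42 of the comparators' level and 1.2-fold that of matched comparators. Ido1, an enzyme of tryptophan breakdown, had 1 UMI in all members together.

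Cytokine transcripts were nearly level, at 339 CPM in members and 341 CPM in comparators over the list. Il1rn, the interleukin-1 receptor antagonist, was 3.67-fold higher (5.67-fold against matched comparators). It was the only gene of 9 tested past 2-fold upward against comparators, and 1 was lower, against 2.54% and 8.89% of all genes. Against matched comparators 3 of the 9 were at least 2-fold higher and 1 lower, against 3.09% and 6.89% of all genes. Il12a and Il12b, the subunits of interleukin-12, had 0 UMIs in members, which leaves each at no more than 1.73 CPM by the floor of 3 counts, and Il12b had 1 UMI in comparators. Il12a had 51 UMIs in comparators, so it was at least 3.73-fold lower in members at that floor. Il27, a subunit of interleukin-27, had 21 UMIs in members and 6 in comparators and was below the count needed for testing. Tnf and Il1b were at 1.15 and 1.26 of the comparators' level.

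Of the NF-kappaB and maturation genes, 4 of 18 were at least 2-fold higher, against 2.54% of all genes, and 2 lower, near the 8.89%. Against matched comparators 7 were higher and 1 lower, where the shares of all genes were 3.09% and 6.89%. The 2 lower genes were Stat4, at 0.28, and Socs2, at 0.44, which was higher against matched comparators. Bcl2a1b, a survival factor of the BCL2 family, was 4.18-fold higher and Marcksl1 2.62-fold (6.99-fold and 5.39-fold against matched comparators), while the kinase gene Map3k14 was at 0.62. Among genes of cell death, 3 of 14 were at least 2-fold higher and 0 lower, against 2.54% and 8.89% of all genes. The 3 included Casp4, an inflammatory caspase, at 4.21-fold and the death receptor Fas at 3.56-fold. Serpina3f, a close relative of Serpina3g on chromosome 12, was 53.9-fold higher on 71 UMIs in members and 6 in comparators. In the list of pattern recognition genes 0 of 8 were at least 2-fold higher and 1 was lower, Cd14, at 5.19 against 17.3 CPM, which is near the 2.54% and 8.89% of all genes. In the list of genes tied to the cytokines GM-CSF and interleukin-4, Mgl2, Ccl24 and Il4ra were the 3 higher genes of 9. The share over all genes was 2.54%, and Il4ra was at 2.17-fold.

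Ranked the same way in the other direction, the 15 genes were Ly6d, Hpgd, Hist1h2ap, Cd7, Hist1h2ae, Cx3cr1, Txndc5, Pdcd4, Stmn1, Rasgrp2, Cdkn2d, Ypel3, Prdx4, Pou2f2 and Sepp1. Hpgd, which breaks down prostaglandins, stood at 9.80 CPM in members against 73.3 CPM, 7.49-fold lower, and at 83.7 CPM in matched comparators. Ly6d was 74.3-fold lower against comparators, which include Siglech cells, and stood at 42.9 CPM in matched comparators against 4.03 CPM in members. Cdkn2d, an inhibitor of cyclin-dependent kinases, was in 18.0% of members and 40.8% of comparators. Of 11 proliferation genes tested, 10 were at least 2-fold lower, against 8.89% of all genes, and their sum was 252 against 644 CPM. Txndc5 and Prdx4, both enzymes of protein folding in the endoplasmic reticulum, were 3.62-fold and 2.88-fold lower. Plasma cell markers, a list that includes Txndc5, summed to 420 CPM in members and 4028 CPM in comparators, with Sdc1 at 0 in members, and their part in these 2 values was not tested. In members, 1 cell held 426 of the 449 Jchain UMIs.

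The immediate early and heat shock list was at 0.83 of the comparators' level, with 1 of 14 genes at least 2-fold lower, Nr4a1, a share near the 8.89% of all genes. B cell markers summed to 12.1 CPM in members and 93.0 CPM in comparators, with Ms4a1 among the 5 genes at 0 in members. NK cell and ILC1 markers summed to 2.3 and 25 CPM, with Ncr1, Klrb1c and Eomes among the 5 genes at 0 in members.

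Cells with more chemokine RNA also held more of the interferon-related transcripts. In the matched comparators and in cells with 1, 2 to 3, 4 to 9 and at least 10 chemokine UMIs, the GTPase list stood at 134, 215, 513, 640 and 1407 CPM. Serpina3g stood at 11.6, 61.2, 121, 221 and 515 CPM, and Ly6a at 76.2, 113, 309, 435 and 745 CPM. Each of these 3 values was higher at every step. The type I list stayed at 2925 CPM with 0 and with 1 chemokine UMI and reached 6662 CPM in the highest range. Isg15 was lower with 1 UMI, at 73.4 CPM, than with none, at 105 CPM, and stood at 971 CPM in the highest range. The cytokine list stayed between 323 and 355 CPM throughout. The MHC class II list was highest with 2 to 3 UMIs, at 44748 CPM. Cx3cr1 went the other way, from 70.1 CPM with none to 7.27 CPM with at least 10. These are ranges and not cell types, and the genes that set them also chose the cells.

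**Figure D3:**
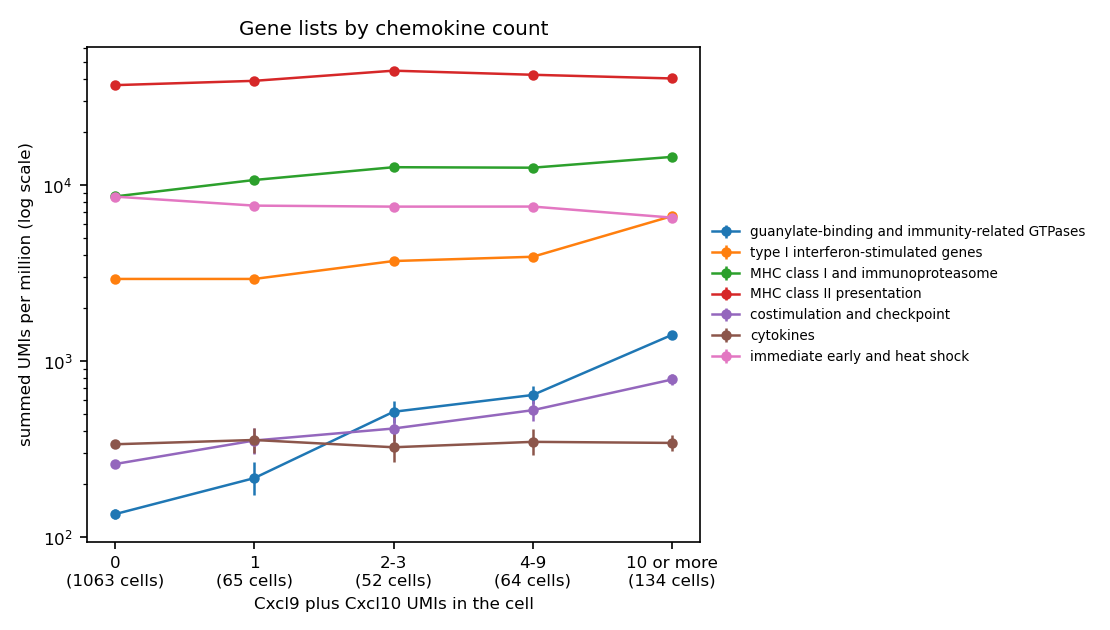
Summed CPM (log axis) of 7 gene lists in matched comparators (0) and in cells grouped by their Cxcl9 plus Cxcl10 UMIs, with exact Poisson 95% intervals. The GTPase list climbs from 134 to 1407 CPM, while the cytokine list stays between 323 and 355 CPM.

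Members with Cxcl10 only differed from those with Cxcl9 only. The 26 with Cxcl10 only held 189 CPM of Ifit3 (129 to 266) against 10.4 CPM (5.4 to 18.2) in the 159 with Cxcl9 only. Few cells carried it, 15.4% of the former and 4.40% of the latter, so these counting intervals do not bound the level of the groups. The type I list stood at 6164 and 4480 CPM. Ccl17 went the other way, at 5.89 CPM (1 UMI) against 702 CPM, as did Serpina3g at 112 against 326 CPM and Ly6a at 230 against 567 CPM. Cd209a was at 843 and 176 CPM and Lyz2, the lysozyme of myeloid cells, at 1314 and 506 CPM. In the same 26 cells C1qa, a complement gene of macrophages, stood at 501 CPM, carried by 7.69% of them. The 65 members with both chemokines held the most of the GTPase list, at 1715 CPM, against 854 and 636 CPM, and of the costimulation list, at 1022 CPM against 546 and 395 CPM. Cxcl9 itself stood at 4261 CPM in members with both and 2495 CPM in those with Cxcl9 only. The split thus also divides the members by chemokine amount, and its part in these values was not tested.

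Ccl17 marked another division. The 76 members with a Ccl17 UMI held 455 CPM of Ccl22 against 31.9 CPM in the other 174, 630.5 against 81.8 CPM of AA467197, and 552 against 35.2 CPM of Ccl24. The GTPase list stood at 1562 and 821 CPM. Cxcl9 itself stood at 4085 and 2085 CPM, so the split also divides the members by Cxcl9, and its part in the other values was not tested. The mature dendritic-cell markers left after the rule summed to 886 and 127 CPM, a list that includes Ccl22. Both groups held the type I list at a like level, 5384 and 5399 CPM, and their median depths were 6600 and 6652.5 UMIs. Members with Ccl17 thus held more Ccl22 and GTPase RNA and about as much of the type I list. Among matched comparators, which have neither chemokine, 31 cells had a Ccl17 UMI. They held 265 CPM of Ccl24, 245 CPM of AA467197 and 367 CPM of the GTPase list. All matched comparators held 13, 21.7 and 134 CPM of these. Higher values in cells with Ccl17 were therefore not particular to members.

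The transcripts whose counts went most closely with Cxcl9 were ranked over the 243 thinned members, among 1116 genes found in at least 25% of them. Serpina3g had the largest Spearman correlation, 0.44, followed by Tspo and Ccl17 with 0.39 each, Gbp2 and Psme2 with 0.36, Pkib with 0.35, Zbp1 with 0.33 and Btg1 with 0.31. The points are cells of 1 library and the values are small.

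Inside the 2 largest classes members were set against matched comparators of the same class. In Cd209a cells the GTPase list was 7.04-fold higher in members (6.19 to 8.01), and in cells of neither class it was 8.46-fold higher (7.50 to 9.55). Serpina3g was 60.2-fold and 26.0-fold higher, Ccl17 64.5-fold and 28.0-fold, Cd40 7.87-fold and 11.1-fold, and Ly6a 10.3-fold and 6.54-fold. Ccl24, with most of its UMIs in 5 members, was at 43.5-fold (31.0 to 62.5) and 4.22-fold (2.66 to 6.78). Txndc5 was at 0.64 of the matched level in Cd209a cells and 0.14 in cells of neither class. Ccl5 was at 1.01 and 2.82, and Ccr2 at 0.91 and 1.03. The difference between classes was not tested. Type 1 cells, with 16 members, were too few for ratios.

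**Figure D4:**
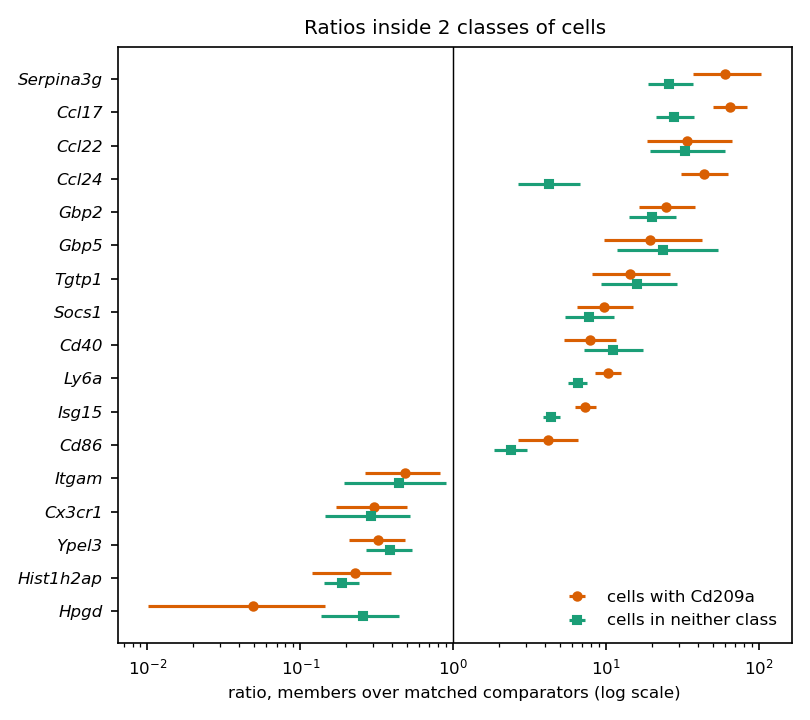
Ratio of members to matched comparators (log axis) for 17 genes inside cells with Cd209a (circles) and cells in neither class (squares), with exact 95% counting intervals and a line at 1. Ratios of each of these 17 genes lie on the same side of 1 in both classes, and Ccl24 shows the widest gap between them, 43.5-fold against 4.22-fold.

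The same rule was applied to the CD122+CD49a+ library, whose cells did not choose the members. It found 27 cells, 2.16% of those kept (1.43 to 3.13%), with a median of 2297 UMIs, and 404 comparators. In that library 195 of 2644 genes (7.38%) were at least 2-fold higher in these cells and 332 (12.6%) at least 2-fold lower. Of the 15 genes highest in LSM members, 10 had at least 20 UMIs there, and all 10 were at least 2-fold higher. Serpina3g was 45.4-fold higher (26.5 to 81.2), Gbp2 34.3-fold (21.5 to 55.7), Ccl17 16-fold (9.48 to 27.0) and Cd40 9.59-fold (5.03 to 17.8). Of the 15 lowest genes, 14 had at least 20 UMIs, and 5 of these were at or below 0.5 of the comparators' level. The 5 were Hist1h2ap, Cx3cr1, Pdcd4, Ypel3 and Pou2f2, each with 1 or 2 UMIs in these cells. Of the 5 intervals only that of Hist1h2ap (up to 0.27) stayed below 1, the others reaching 1.06 to 1.35. Of the 14, 10 were below 1 (3 of them as upper bounds), Sepp1 among them at 0.98 and Cd7 at 0.77, and 1 was above, Txndc5 at 1.21 (0.38 to 2.97). The other 3 had 0 UMIs in these cells and too few in comparators for a bound.

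In that library the GTPase list was 10.2-fold higher (8.41 to 12.4) and the type I list 1.68-fold (1.52 to 1.86), and the MHC class II list was at 1.09. The cytokine list was 1.71-fold higher (1.30 to 2.22) there, whereas it was level in the LSM library. Ifngr1 was at 0.45 (0.20 to 0.86), close to its LSM value of 0.49. Ly6a was 3.23-fold higher (1.83 to 5.41), in a gate that does not name Sca-1. Naaa, an acid amidase of type 1 dendritic cells, was 2.26-fold higher in LSM members but at 0.92 (0.64 to 1.28) in the other library.

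**Figure D5:**
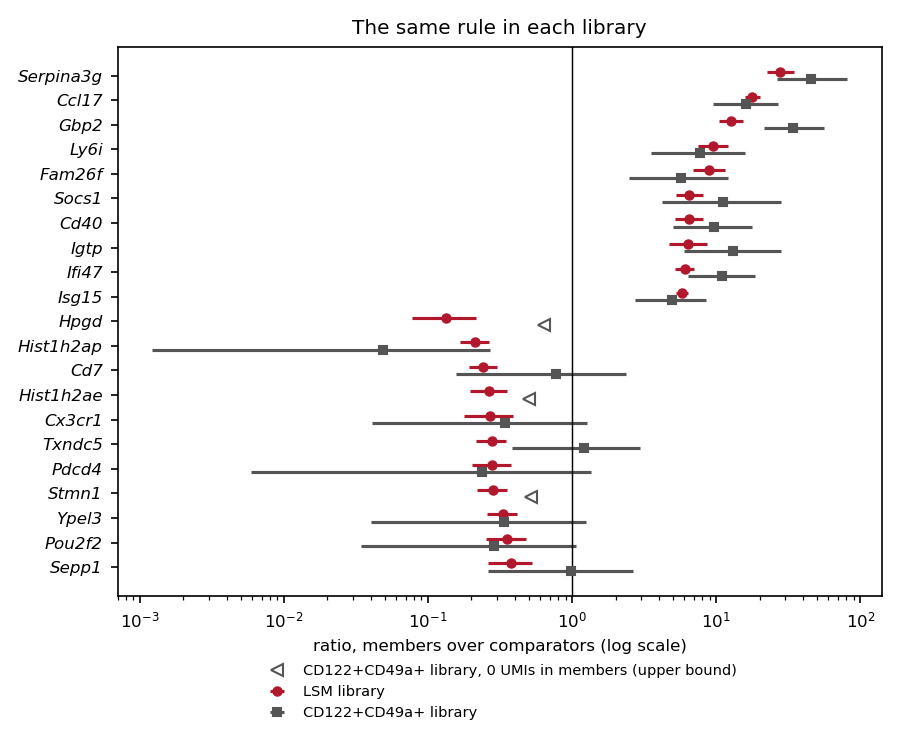
Ratio of members to comparators (log axis) in the LSM library (circles) and in the CD122+CD49a+ library (squares), with exact 95% counting intervals, for the ranked genes with at least 20 UMIs and a ratio in the second library, and open triangles for upper bounds where its members had 0 UMIs. All 10 genes higher in LSM members lie to the right of 1 in both libraries, while the lower genes have wide intervals in the second.

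Interferon gamma is made by T cells and natural killer cells, and CXCR3 is carried by them. Ifng was found in 37 of 116 LSM cells with a Cd3d or Cd3g UMI (31.9%, median 2562 UMIs) and in 3 of the 2949 others (0.102%, median 5175 UMIs), and no member had an Ifng UMI. In the CD122+CD49a+ library Ifng was in 144 of 714 such cells (20.2%). Ifnb1 had 5 UMIs in the whole kept LSM library. Cxcr3 was in 17 of the 116 LSM cells (14.7%) and in 154 of the 2949 others (5.22%), which held most of the LSM cells with a Cxcr3 UMI. In the other library it was in 183 of the 714 cells (25.6%) and in 39 of the 534 others (7.30%).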

How the data were processed

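Single-cell UMI counts of 2 libraries were taken from the gene by cell matrices deposited by the authors, whole numbers with no normalization. The file headers give software version 3.0.1. The submitters' processing notes list STAR, Seurat 2.3.0 and the build GRCm38 without saying what each did, and how barcodes were selected is not stated. A cell was kept with 500 or more genes and no more than 10% of UMIs from mitochondrial genes. Gene positions come from GENCODE M21 (27645 of 27998 identifiers matched). A symbol on several rows was taken from the row whose identifier the gene name table pairs with it. Clec7a, Cxcl11, Mx2 and Pclaf were not analysed here, and some genes counted in the lists are not reported here by name.

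Counts were summed over cells of a group and given as CPM with exact Poisson intervals. Ratios have exact conditional intervals, and shares Clopper-Pearson intervals, all at 95%. Counts of 0 were replaced by 3, the floor, which is 1.73 CPM in members and 0.379 CPM in comparators, and makes the ratio a bound. Genes with at least 50 UMIs over both groups were compared, and a ratio of at least 2 or at most 0.5 was counted. Where no cell had a UMI, the limit printed is 3 over the number of cells. For shares at equal depth each cell was thinned to 3000 UMIs without replacement, leaving out 7 members and 79 comparators. With 1 library per group no test across samples was possible.

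In each direction the 15 ranked genes were those of largest ratio among protein-coding genes with at least 50 CPM and a UMI in at least 10% of cells in the higher group, past 2-fold also against matched comparators. Genes of 33 lists and the 8 genes most like Cxcl9 were named too, and Ifng, Itgam and Ly6a were added. The members, the lists and these rules were chosen with earlier results of these data known. Alternatives were other limits of the rule, other comparators, scalings, gene minimums, cell filters, thinning, per-cell means and removal of predicted doublets, which were otherwise kept. Median depth of kept cells was 5109 UMIs in the LSM library. The procedure was tested on simulated Poisson counts, the form that the intervals assume, so clumping of UMIs in few cells was not covered. Software was Python 3.11.15 with numpy 2.4.6, scipy 1.17.1, pandas 2.3.3, scanpy 1.11.5 and matplotlib 3.10.9.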

Additional observations from a re-analysis of the deposited data

How the results depend on the processing

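The share of LSM cells that are members was 10.3%, 6.46% and 4.37% with a chemokine minimum of 1, 4 and 10 UMIs, 9.27% with no exclusion genes and 9.26% with the stricter cell filter of 1000 genes and 5% mitochondrial UMIs. The genes 2-fold or more higher in members numbered 302 and 95 with a gene minimum of 20 and 200 UMIs. The genes 2-fold or more lower in members numbered 1227 and 160 with those minimums, 248 with no minimum and 5 CPM added to both groups, and 1130 with a chemokine minimum of 10. A gene minimum changes how many genes are tested, and the cause of the other shifts was not tested. Against matched comparators 268 of 289 named genes kept their direction. Of those past 2-fold, 6 reversed: Apol7c (3.67), Ccl5 (2.74), Cd200 (1.2), Il7r (1.88), Ly6c2 (1.18) and Socs2 (7.33), each below 0.5 against all comparators, a set that also holds cells with Ccr7, Fscn1, Siglech, Cd3d or Cd3g. All 30 ranked genes kept their direction and stayed past 2-fold under the 6 other alternatives run for them: median-of-ratios scaling, thinning, per-cell means, a chemokine minimum of 4, the stricter cell filter and removal of predicted doublets. Their choice already required 2-fold against matched comparators. Of all named genes past 2-fold, 119 of 137 stayed past it with thinning, 120 of 130 with per-cell means and 120 of 135 against matched comparators. Of the 4 lists past 2-fold, 3 stayed with thinning and with per-cell means, where the summed ratio of costimulation and checkpoint was 1.94 and 1.96. No paired analysis was possible because each gate had 1 library. Scrublet's automatic threshold marked 0.319% of barcodes, so the expected 2.51% with the highest scores (79) were taken instead. Depth limits genes with few UMIs, and UMIs that clump in a few cells make the counting intervals too narrow.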
